A study of Rattus norvegicus with 27 samples.

Results

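The expression of 9 genes that mark the medium spiny neurons of the striatum was followed through 3 brain regions of 2 rat models of diabetes and their controls. The genes were Drd1a, Tac1, Pdyn, Drd2, Adora2a, Penk1, Ppp1r1b, Rgs9 and Pde10a. They were found by their names on the array. A probe of that name existed for 8 of the 9 genes, and Penk1 was reached through the accession of 2 probes that the array names after a related sequence, which gave 11 probes of 9 genes among 41012 probes. The diabetic animals were Goto-Kakizaki rats (blood sugar on average 13.9 mmol/l), an inbred line derived from Wistar stock in which diabetes arises without treatment, and Wistar rats made diabetic with streptozotocin (26.3 mmol/l), a toxin of the pancreatic beta cells. Streptozotocin was given once into the tail vein at 65 mg/kg at an age of 6 weeks. The controls were untreated Wistar rats (7.64 mmol/l), and all animals were males studied at an age of 10 weeks. The hippocampus, prefrontal cortex and striatum of 9 rats per group were pooled by 3, so that each of the 9 combinations had 3 pools and 27 arrays were hybridised. The regions of a group came from the same brains. In the Goto-Kakizaki rats, strain and diabetes cannot be told apart, since no non-diabetic rat of that strain was measured, and the p-values measure the spread between pools.

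Medium spiny neurons are the GABAergic projection neurons of the striatum and make up most of its cells. Neurons of the direct pathway carry the D1 dopamine receptor and release substance P and dynorphin, whereas neurons of the indirect pathway carry the D2 dopamine receptor and the A2a adenosine receptor and release enkephalin. In both, dopamine and adenosine act through cAMP: D1 and A2a receptors raise it, D2 receptors lower it, and phosphodiesterase 10A, encoded by Pde10a, degrades it. Ppp1r1b encodes DARPP-32, the phosphatase inhibitor on which these signals converge, and Rgs9 encodes a GTPase-activating protein that shortens the signal of D2 and opioid receptors.

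Each value rests on a single type of 60-base probe, so the probes behind the main results are shown here as the array files give them. That of Pde10a carried the difference found in Goto-Kakizaki rats, and that of Drd2 stands for the receptors. In the Penk1 probe the 15 capitals are the codons of the Met-enkephalin unit (tyrosine, glycine, glycine, phenylalanine, methionine), a unit that proenkephalin repeats. RefSeq places the genes in the rat build GRCr8 at chr1:54313343-54765668 (Pde10a), chr8:58605403-58669339 (Drd2) and chr5:21981381-21987074 (Penk).
Pde10a probe: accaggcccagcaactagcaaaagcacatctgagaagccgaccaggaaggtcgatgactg
Drd2 probe: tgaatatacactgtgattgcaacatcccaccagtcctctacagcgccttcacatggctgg
Penk1 probe: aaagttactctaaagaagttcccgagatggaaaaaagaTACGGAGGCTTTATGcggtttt

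Levels are given as log2 of the processed signal relative to the 75th percentile of the array, so that 0 is the level of that percentile and a step of 1 is a 2-fold difference. Between 67.4% and 75.3% of the probes of an array were well above background. The main probes of 8 of the 9 genes were well above background on all 27 arrays. Drd1a was not well above background on any streptozotocin hippocampus array and on 1 array each of the Goto-Kakizaki hippocampus and the streptozotocin prefrontal cortex. No member value was saturated, and 3 of 297 were left out as outlier spots, which are named below where a value rests on 2 pools. In the prefrontal cortex of controls, pools 1 and 3 were higher than all 7 other prefrontal arrays for all 9 genes (the Penk1 spot of pool 1 was an outlier spot), so the main results with this group are also given without them. That leaves pool 2 as the only control pool of the prefrontal cortex, and the fit then takes its spread from the other groups, as if this lone pool varied like them.

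In control rats all 9 genes were higher in the striatum than in both other regions, by 2.99-fold for Pdyn up to 94.6-fold for Adora2a over the hippocampus and by 5.09-fold for Pdyn up to 26.2-fold for Adora2a over the prefrontal cortex. A gene was called where limma's adjusted p was under 0.05 and the difference at least 2-fold. All 9 genes were called higher than in the hippocampus, as were 4.15% of all probes tested, and all 9 higher than in the prefrontal cortex, as were 3.96%. The median difference of the genes was 5.69 against the hippocampus and 3.68 against the prefrontal cortex, beside 0.03 and 0 over all probes tested. Against prefrontal control pool 2 alone, the difference for Adora2a was 6.21 instead of 4.71. The genes were chosen as striatal markers, so this comparison describes how far each of them marks these pools.

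**Figure D1:**
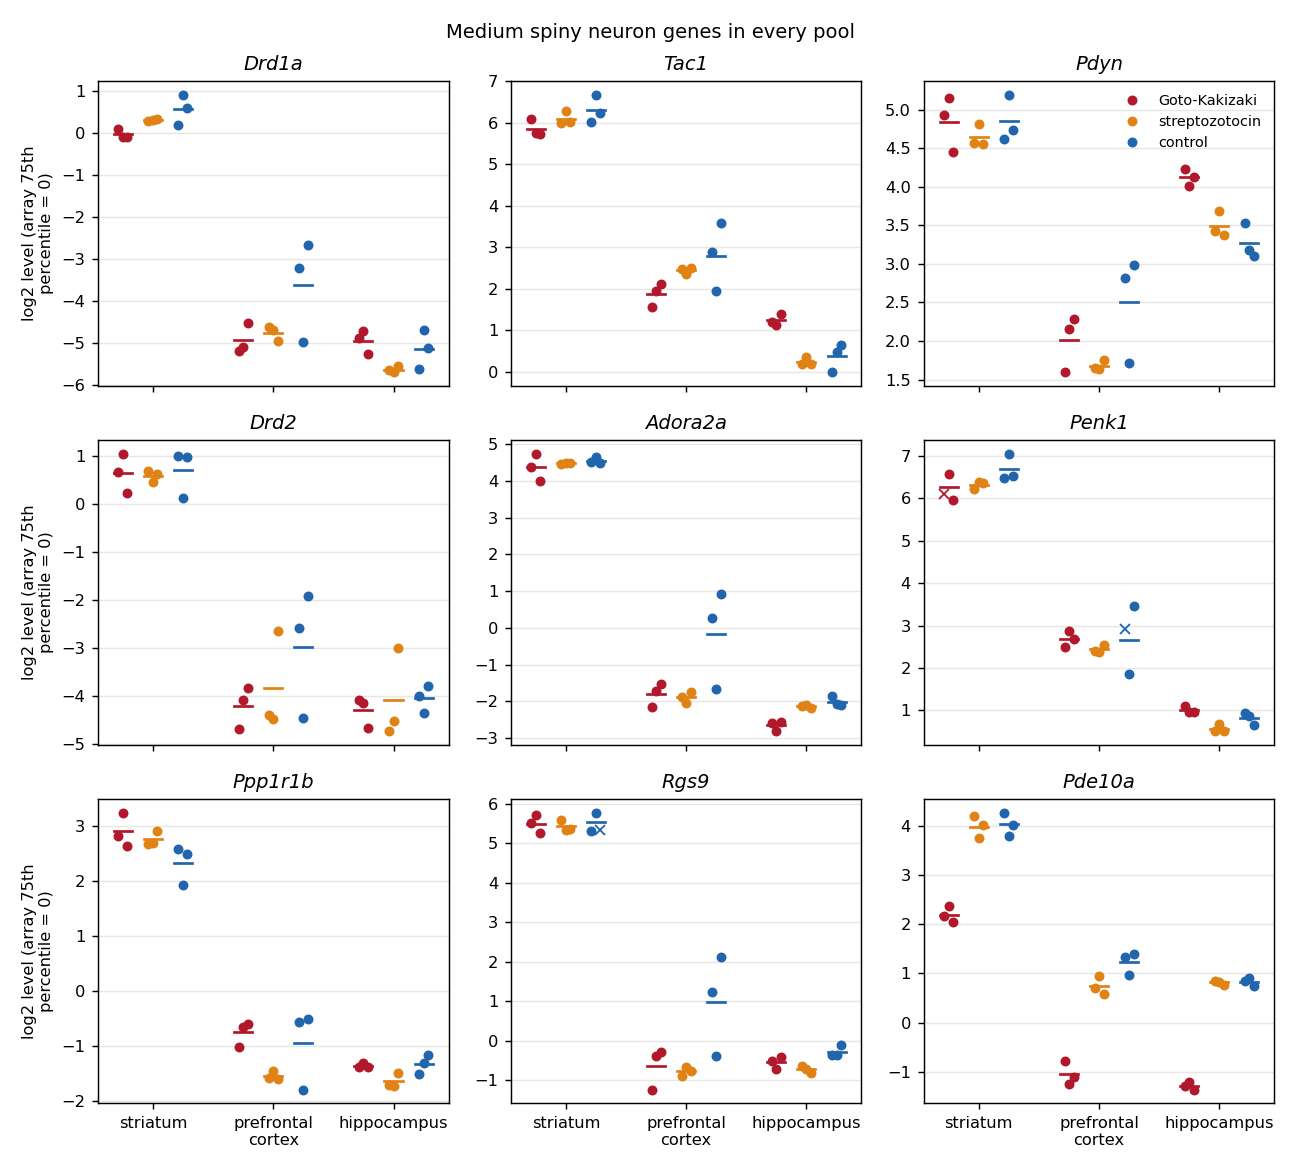
Level of the 9 genes in each pool (y axis, log2 signal relative to the 75th percentile of the array) by brain region, with Goto-Kakizaki, streptozotocin and control pools from left to right. Points are pools, lines are means and crosses are outlier spots that were left out; every striatal point lies above every other point of its gene, and the Goto-Kakizaki points of Pde10a lie below the others in each region. Drd1a was not well above background in the streptozotocin hippocampus.

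The genes of the direct pathway differed from each other in how strictly they followed the striatum. Drd1a, the D1 receptor, lay between -0.10 and 0.90 in the 9 striatal pools, against -5.19 to -2.67 in the prefrontal cortex and -5.68 to -4.68 in the hippocampus, so the striatum lay far above both other regions, which overlapped with each other. In streptozotocin-treated rats its mean striatal level was at least 56.7-fold above the hippocampus (limma, adjusted p = 8.9e-11). This is a bound on the means because the hippocampal probe was not well above background. It does not allow for the spread between pools. Tac1, which encodes substance P and neurokinin A, lay between 5.72 and 6.67 in the striatum, 1.55 and 3.57 in the prefrontal cortex and -0.01 and 1.39 in the hippocampus, and these 3 ranges did not overlap. Pdyn, the precursor of the dynorphins, is also made by dentate granule cells. It was the only one of the 9 whose hippocampal pools (3.10 to 4.23) all lay above its prefrontal pools (1.60 to 2.98), while its striatal pools reached from 4.45 to 5.19.

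The distance of Pdyn between striatum and hippocampus was the smallest of the genes in each animal group. In Goto-Kakizaki rats its level was 4.84 ± 0.362 in the striatum and 4.12 ± 0.111 in the hippocampus (SD, n = 3 pools each), a difference of 0.73 (SE 0.26, 1.66-fold, limma, adjusted p = 0.029) that stayed under 2-fold. It was 1.15 in streptozotocin-treated rats (2.22-fold, adjusted p = 0.0019) and 1.58 in controls (2.99-fold, adjusted p = 6.4e-05). In Goto-Kakizaki rats 8 of the 9 genes were therefore called higher than in the hippocampus (8.69% of all probes tested) and 9 of 9 higher than in the prefrontal cortex (6.96%). In streptozotocin-treated rats it was 9 of 9 in both comparisons, beside 3.5% of all probes for the hippocampus and 4.75% for the prefrontal cortex.

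The genes of the indirect pathway included the steepest contrast. Adora2a, the A2a receptor, lay between 4.00 and 4.74 in the striatum, -2.15 and 0.92 in the prefrontal cortex and -2.80 and -1.86 in the hippocampus. Its striatal level was 131-fold above the hippocampus in Goto-Kakizaki rats, 98.4-fold in streptozotocin-treated rats and 94.6-fold in controls, and in Goto-Kakizaki rats its 2 probes ranked 1 and 2 of 31612 probes by this difference. Drd2, the D2 receptor, lay between 0.12 and 1.05 in the striatum, -4.69 and -1.92 in the prefrontal cortex and -4.72 and -3.00 in the hippocampus. Outside the striatum it stood high in pool 3 of streptozotocin-treated rats, at -3.00 in the hippocampus against -4.72 and -4.51 in the other pools, and at -2.65 in the prefrontal cortex against -4.40 and -4.47. Both arrays were on slide 6, and whether the slide plays a part in this was not tested.

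Penk1, the precursor of the enkephalins, lay between 5.96 and 7.05 in the striatum, 1.86 and 3.45 in the prefrontal cortex and 0.52 and 1.11 in the hippocampus, which again set the 3 regions apart. The second probe of Penk1 stayed between -5.07 and -2.71 on all arrays. Its difference between striatum and hippocampus was 0.76 in Goto-Kakizaki rats, 1.38 in streptozotocin-treated rats and 1.03 in controls, against 5.26 (from 2 striatal pools), 5.75 and 5.86 for the main probe. The probes had the same direction but a different size, and all further values of Penk1 are those of the main probe. The second probe of Adora2a gave differences of 7.23, 6.64 and 6.70 in the same comparisons, close to those of the first.

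The signalling genes of both pathways lay above the other regions as well. Rgs9 had the widest gap between its lowest striatal pool (5.27) and its highest pool elsewhere (2.12), and its striatal level was 65.6-fold above the hippocampus in Goto-Kakizaki rats, 70.7-fold in streptozotocin-treated rats and 56.7-fold in controls, where the striatal mean rests on 2 pools. Ppp1r1b lay between 1.92 and 3.24 in the striatum, -1.79 and -0.50 in the prefrontal cortex and -1.73 and -1.17 in the hippocampus. Pde10a reached from 2.05 to 4.27 in the striatum, a wider range than any other gene there, and from -1.36 to 1.40 elsewhere. The lowest striatal pools of Pde10a were those of Goto-Kakizaki rats, described next. Between prefrontal cortex and hippocampus the ranges of Drd1a, Drd2, Adora2a, Ppp1r1b, Rgs9 and Pde10a overlapped.

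**Figure D2:**
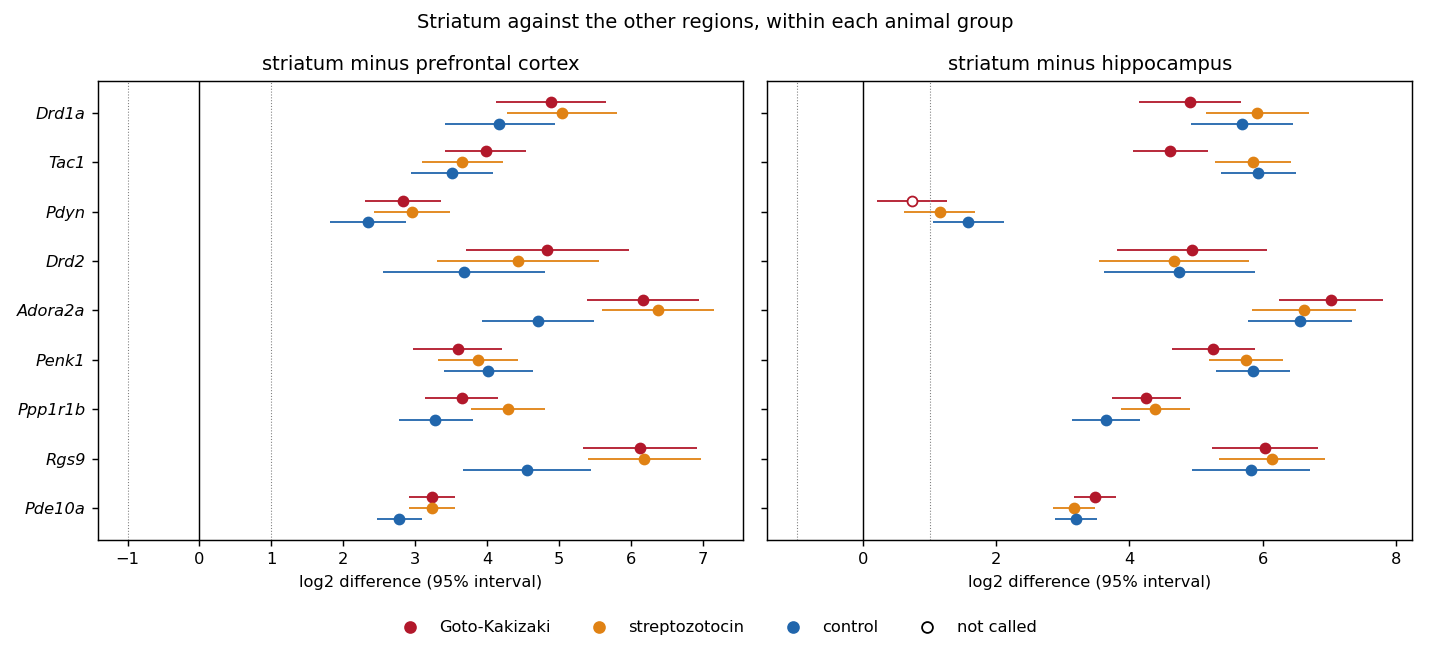
Difference between the striatum and the hippocampus or the prefrontal cortex for the 9 genes (x axis, log2, with 95% intervals from limma) in Goto-Kakizaki, streptozotocin-treated and control rats. Filled symbols were called and dotted lines mark 2-fold; only Pdyn in Goto-Kakizaki rats against the hippocampus, at 0.73, is open.

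Pde10a, the cAMP and cGMP phosphodiesterase of medium spiny neurons, was called lower in Goto-Kakizaki rats in all 3 regions, which held for no other gene of the 9. In the striatum its level was 2.17, 2.37 and 2.05 in the Goto-Kakizaki pools, against 4.27, 3.79 and 4.02 in the control pools. In the hippocampus it was -1.29, -1.21 and -1.36 in the Goto-Kakizaki pools, against 0.84, 0.90 and 0.74 in the control pools. In the prefrontal cortex it was -0.77, -1.24 and -1.11 in the Goto-Kakizaki pools, against 1.34, 0.97 and 1.40 in the control pools. Every Goto-Kakizaki pool was below every control pool of its region, and the nearest pools were more than 1 log2 step apart in each region.

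The difference was -1.83 in the striatum (SE 0.15, 3.56-fold lower, limma, adjusted p = 4.5e-08) and -2.11 in the hippocampus (SE 0.15, 4.33-fold lower, adjusted p = 5e-09). For the prefrontal cortex it was -2.28 (SE 0.15, 4.85-fold lower, adjusted p = 1.5e-09). Pde10a was the only gene of the 9 called in the striatum, where 3.09% of all probes were called and 1.47% called lower, and in the hippocampus, where 1.92% were called and 1.14% called lower. By the size of the fall it was 120 of 30608 probes from the lowest in the striatum and 91 of 30679 in the hippocampus. Streptozotocin-treated rats did not share the fall. Their Pde10a levels were 4.19, 3.75 and 4.01 in the striatum and 0.85, 0.83 and 0.77 in the hippocampus, which overlapped with the controls. Their differences were -0.04 (95% interval -0.36 to 0.28, adjusted p = 0.90) and -0.01 (-0.33 to 0.31, adjusted p = 0.99).

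No difference between regions in the fall of Pde10a in Goto-Kakizaki rats was called. The fall was smaller in the striatum than in the hippocampus by 0.28 (95% interval -0.16 to 0.73, limma, adjusted p = 0.51) and smaller in the striatum than in the prefrontal cortex by 0.45 (0.00 to 0.90, adjusted p = 0.41), or by 0.18 against prefrontal control pool 2 alone. Striatum minus hippocampus, a gradient within the same rats, was 3.48 in Goto-Kakizaki rats, 3.17 in streptozotocin-treated rats and 3.20 in controls. Within single slides the fall was -2.08 in the hippocampus (1 Goto-Kakizaki pool against 2 control pools) and -2.07 in the striatum (3 against 1), while no slide held both groups for the prefrontal cortex. Leaving out any 1 pool, the difference lay between -1.95 and -1.71 in the striatum, between -2.42 and -2.18 in the prefrontal cortex and between -2.16 and -2.08 in the hippocampus, and it was called each time. With the test named in the methods, which takes its spread from the compared pools alone, Pde10a was called in the hippocampus (adjusted p = 0.0096) and no longer after adjustment in the striatum (adjusted p = 0.26) and in the prefrontal cortex (adjusted p = 0.089). A single probe measured the gene, and whether this probe binds equally well to Goto-Kakizaki and Wistar transcripts was not tested. In such bulk samples, fewer cells of a type and less RNA per cell cannot be told apart.

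None of the other 8 genes was called in the striatum of either model. In Goto-Kakizaki rats their differences from control lay between -0.60 and 0.57 with adjusted p from 0.13 to 0.99, and the widest 95% intervals reached from -1.37 to 1.08. Ppp1r1b was 2.81, 3.24 and 2.64 in the Goto-Kakizaki pools, against 2.58, 1.92 and 2.48 in the control pools, which did not overlap (difference 0.57, limma, adjusted p = 0.13). Drd1a was 0.08, -0.10 and -0.10 in the Goto-Kakizaki pools, against 0.19, 0.90 and 0.60 in the control pools, which did not overlap either (difference -0.60, adjusted p = 0.31). Neither passed the threshold. With Pde10a, the 9 genes had a median difference of -0.18, beside 0.02 over all probes tested.

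In streptozotocin-treated rats none of the 9 genes was called in the striatum, where 0.866% of all probes were called. Their differences lay between -0.36 for Penk1 and 0.43 for Ppp1r1b, and the number with an unadjusted p under 0.05 in limma was 0, as was the number called by the test named in the methods. For the dopamine receptors, Drd1a was 0.27, 0.31 and 0.32 in the streptozotocin pools, against 0.19, 0.90 and 0.60 in the control pools, and Drd2 was 0.68, 0.47 and 0.63 in the streptozotocin pools, against 1.01, 0.12 and 0.98 in the control pools. The groups overlapped for both receptors and did not overlap for Penk1 and Ppp1r1b. Penk1 was 6.22, 6.38 and 6.36 in the streptozotocin pools, against 6.47, 7.05 and 6.52 in the control pools (limma, adjusted p = 0.47), and Ppp1r1b was 2.66, 2.69 and 2.91 in the streptozotocin pools, against 2.58, 1.92 and 2.48 in the control pools (adjusted p = 0.36). The median difference of the 9 genes was -0.13, beside -0.03 over all probes tested.

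**Figure D3:**
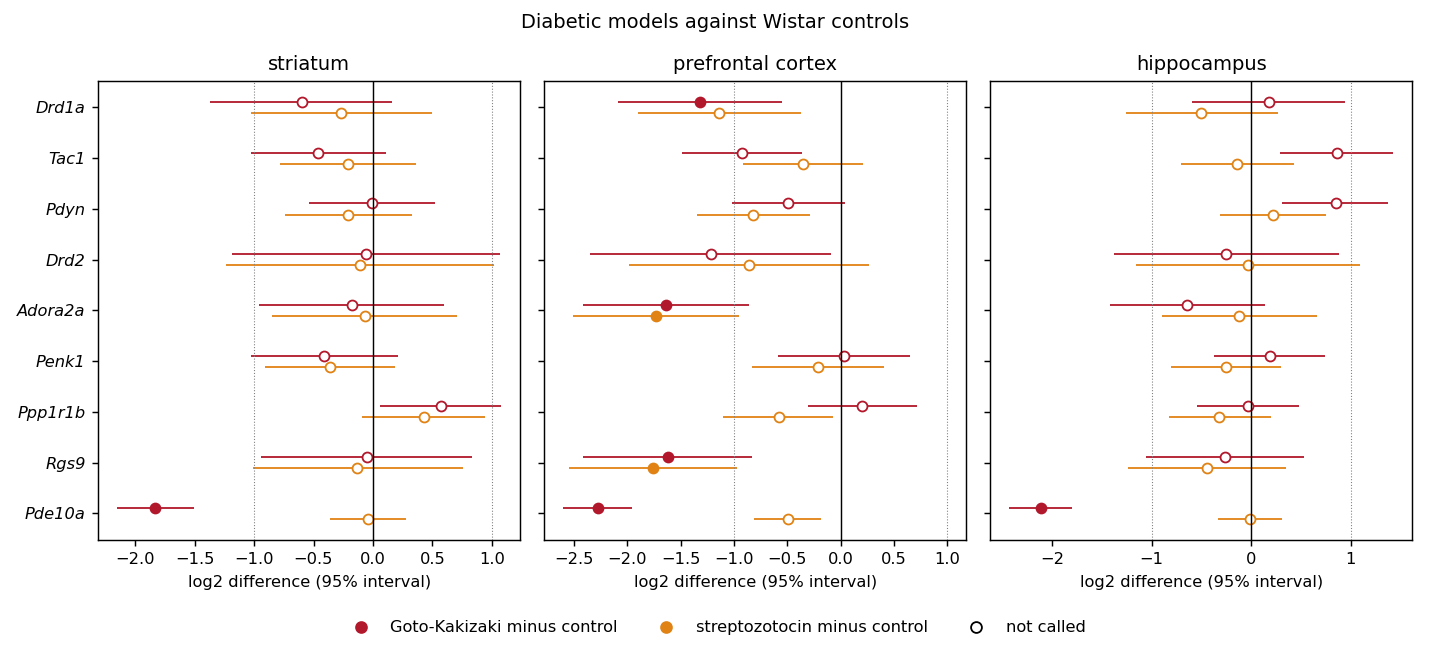
Difference from control of the 9 genes in Goto-Kakizaki and streptozotocin-treated rats (x axis, log2, with 95% intervals from limma) in each of the 3 regions. Filled symbols were called; Pde10a in Goto-Kakizaki rats lies between -2.28 and -1.83 in all regions, while the other genes of these rats lie between -0.64 and 0.86 in the striatum and hippocampus, with open symbols. Drd1a was not well above background in the streptozotocin hippocampus, so its symbol there is no exact value.

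In the hippocampus the peptide genes of the direct pathway stood higher in Goto-Kakizaki rats without passing the threshold. Pdyn was 4.23, 4.01 and 4.12 in the Goto-Kakizaki pools, against 3.53, 3.18 and 3.10 in the control pools. Tac1 was 1.20, 1.13 and 1.39 in the Goto-Kakizaki pools, against -0.01, 0.48 and 0.65 in the control pools. The groups did not overlap for either gene. The difference was 0.85 for Pdyn (SE 0.26, 1.80-fold, limma, adjusted p = 0.060) and 0.86 for Tac1 (SE 0.27, 1.82-fold, adjusted p = 0.077), and neither was called in any of the alternative analyses. In streptozotocin-treated rats Pdyn was 3.42, 3.68 and 3.38 and Tac1 was 0.18, 0.36 and 0.18, both overlapping with the controls.

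Sums of other cell-type markers also stood apart from the controls in the Goto-Kakizaki hippocampus. The summed signal of 3 interneuron genes (Pvalb, Sst and Npy), in multiples of the 75th percentile of the array, lay between 75.7 and 85.3 in the Goto-Kakizaki pools, against 49.4 and 55.3 in the control pools. The sum of 3 dentate and pyramidal genes (Prox1, Dsp and Fibcd1) lay between 0.218 and 0.262 in the Goto-Kakizaki pools, against 0.309 and 0.385 in the control pools, that of 7 oligodendrocyte genes between 203 and 224, against 245 and 268, that of 4 cholinergic genes between 0.379 and 0.425, against 0.503 and 0.65, and that of 3 midbrain dopamine genes between 3.00 and 3.06, against 3.45 and 3.75. The first of these sums was higher and the others lower in all Goto-Kakizaki pools. The midbrain dopamine sum was lower still in the streptozotocin pools (2.16 to 2.74), so its fall was not particular to Goto-Kakizaki rats. In the Goto-Kakizaki hippocampus, 3 of 3, 1 of 3, 3 of 7, 1 of 4 and 0 of 2 tested genes of these lists, in this order, had an unadjusted p under 0.05 in limma. Sums of striatal genes were also higher there. That of 5 striatal receptors and channels was 15.4 to 17.7, against 12.8 to 14.1, and that of 8 striatal transcription factors 19.9 to 21.1, against 16.9 to 19.3. The sum of the 9 genes themselves was 21.9 to 24.9, against 15.1 to 17.8, but Pdyn made up most of it. In pool 1, Pdyn gave 18.7 of 24.9 in Goto-Kakizaki rats and 11.6 of 17.8 in controls. The median difference of the 9 genes was -0.03, so this sum does not describe them as a set. The sum of 7 striatal signalling partners overlapped (64.9 to 65.5, against 60.1 to 65.0). The sums of the choroid plexus genes (20.7 to 154, against 2.51 to 124), the astrocyte genes and the cortical glutamatergic genes overlapped. The part of these lists in the values of Tac1 and Pdyn was not tested. The difference of the Goto-Kakizaki effect on Tac1 between hippocampus and prefrontal cortex was 1.79 (SE 0.39, limma, adjusted p = 0.050) and missed the threshold. Against prefrontal control pool 2 alone it was 0.93. With all pools, none of the 9 genes was called in any comparison of an effect between regions. For the Goto-Kakizaki effect, 0.361% of all probes were called between striatum and hippocampus, 0.129% between striatum and prefrontal cortex and 0.181% between hippocampus and prefrontal cortex, and 2, 3 and 4 of the 9 genes had an unadjusted p under 0.05 in limma. For the streptozotocin effect the shares were 0.769%, 0% and 0%, and 1, 4 and 4 of the genes had an unadjusted p under 0.05. These shares are for the adjusted p with at least 2-fold, so they are no background for the unadjusted counts. The share of all probes with an unadjusted p under 0.05 was not determined.

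For the remaining genes of the hippocampus, differences between Goto-Kakizaki rats and controls lay between -0.64 for Adora2a and 0.19 for Penk1. Adora2a was -2.60, -2.80 and -2.57 in the Goto-Kakizaki pools, against -1.86, -2.08 and -2.11 in the control pools, which did not overlap (limma, adjusted p = 0.46). Penk1 (0.96 to 1.11, against 0.66 to 0.94) and Rgs9 (-0.70 to -0.41, against -0.36 to -0.10) did not overlap either, and neither was called. In all, the groups did not overlap for 6 of the 9 genes, and the share over all probes was not determined. Over the 9 genes, the median difference was -0.03, beside -0.04 over all probes. Between streptozotocin-treated rats and controls no gene was called in the hippocampus (background 0.639%), the differences of 8 genes lay between -0.44 for Rgs9, whose groups did not overlap, and 0.22 for Pdyn, and the number with an unadjusted p under 0.05 in limma and the number called by the methods' test were both 0. Drd1a was not well above background in the streptozotocin pools, so no size is given for its difference from controls. Its groups overlapped and it was not called (limma, adjusted p = 0.62).

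In the prefrontal cortex 4 of the 9 genes were called lower in Goto-Kakizaki rats and 2 in streptozotocin-treated rats. Of all probes, 2.49% were called in the first comparison (1.75% lower) and 0.98% in the second (0.657% lower). Apart from Pde10a, the calls of the 9 genes rested on control pools 1 and 3. Adora2a was -2.15, -1.72 and -1.53 in the Goto-Kakizaki pools and -1.88, -2.05 and -1.75 in the streptozotocin pools, against 0.26, -1.66 and 0.92 in the control pools. Rgs9 was -1.23, -0.37 and -0.29 in the Goto-Kakizaki pools and -0.88, -0.66 and -0.75 in the streptozotocin pools, against 1.24, -0.38 and 2.12 in the control pools. Drd1a was -5.19, -5.08 and -4.52 in the Goto-Kakizaki pools and -4.62, -4.68 and -4.95 in the streptozotocin pools, against -3.20, -4.96 and -2.67 in the control pools. For all of them control pool 2 lay among or next to the pools of the diabetic models, and control pools 1 and 3 lay well above.

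With all pools, the difference between Goto-Kakizaki rats and controls was -1.64 for Adora2a (SE 0.37, limma, adjusted p = 0.0073), -1.62 for Rgs9 (SE 0.38, adjusted p = 0.0092) and -1.32 for Drd1a (SE 0.37, adjusted p = 0.027), and the groups overlapped for each of them. Tac1 passed the p threshold under 2-fold (-0.93, adjusted p = 0.037, and -0.07 against control pool 2 alone). Between streptozotocin-treated rats and controls it was -1.73 for Adora2a (SE 0.37, adjusted p = 0.014) and -1.76 for Rgs9 (SE 0.38, adjusted p = 0.015). Without control pools 1 and 3, an alternative chosen after their levels were seen, control pool 2 was the only control left and the other groups gave the spread. Against this single pool Adora2a differed by -0.14 and Rgs9 by -0.25 in Goto-Kakizaki rats and by -0.23 and -0.39 in streptozotocin-treated rats, and Drd1a differed by 0.03 in Goto-Kakizaki rats. Pde10a differed by -2.01 in Goto-Kakizaki rats. Ppp1r1b was higher by 1.04 in Goto-Kakizaki rats against pool 2 alone, and its difference with all pools was 0.20. The value of 1.04 rests on this 1 pool, the lowest of the 9 prefrontal pools for Ppp1r1b. Single pools also decided the counts: in Goto-Kakizaki rats 1 gene was called without control pool 3 and 6 without control pool 2, and in streptozotocin-treated rats 0 were called without control pool 1, control pool 3 or streptozotocin pool 1, 1 without streptozotocin pool 3 and 6 without control pool 2. The share of all probes called without these pools was not determined.

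**Figure D4:**
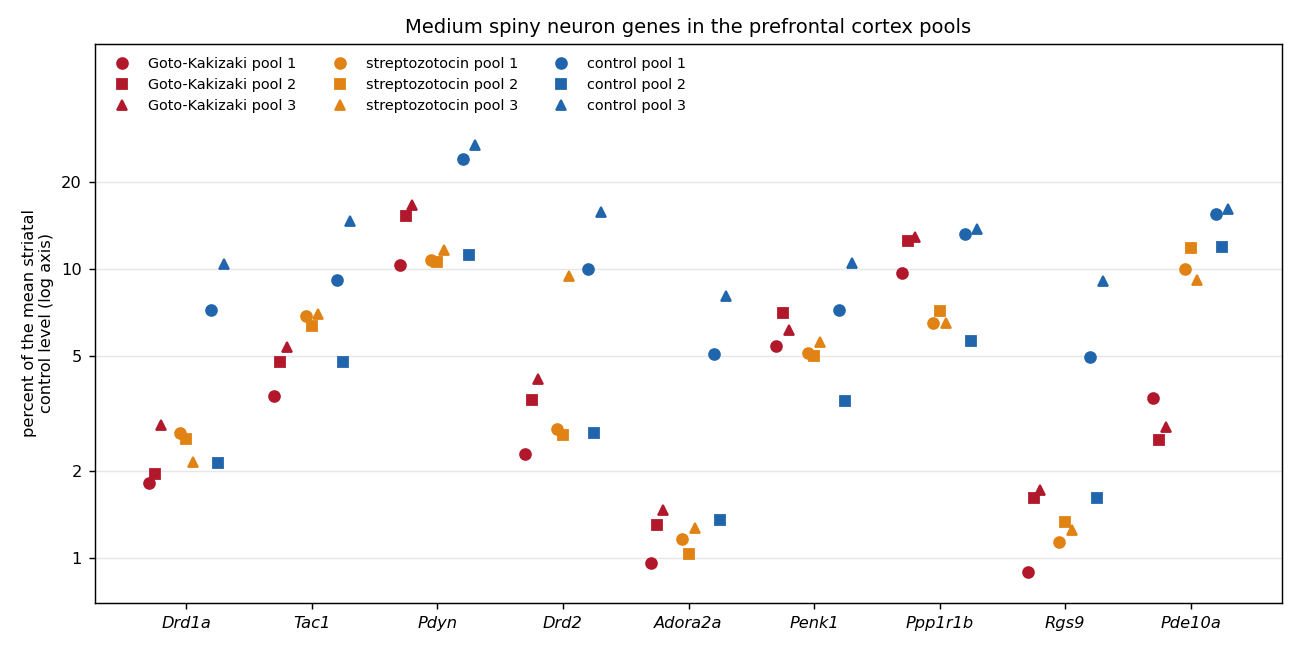
Signal of the 9 genes in each prefrontal pool as percent of the mean striatal control level of the same probe (log axis), for Goto-Kakizaki, streptozotocin-treated and control rats, with pool numbers as marker shapes. Control pools 1 and 3 are the highest for every gene, at 4.96% to 26.9%.

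The height of control pools 1 and 3 can be set against the striatal level of the same probe. As a percentage of the mean striatal control level, Rgs9 was at 4.96% in pool 1 and 9.12% in pool 3, against 0.897% to 1.72% in the other 7 prefrontal pools. Adora2a was at 5.10% and 8.07%, against 0.962% to 1.47%, and Drd1a at 7.22% and 10.4%, against 1.82% to 2.89%. Ppp1r1b was at 13.2% and 13.8%, against 5.63% to 12.9%, so pool 1 lay barely above the rest. Pool 1 was also close to the highest of the other pools for Drd2 (9.98%, against 9.44%) and for Penk1 (7.22% from an outlier spot, against 7.02%). The summed signal of the 9 genes in multiples of the 75th percentile was 13.4, 17.8 and 18.0 in the Goto-Kakizaki pools and 16.9, 16.7 and 17.8 in the streptozotocin pools, against 29.0, 14.2 and 40.7 in the control pools.

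Of the summed markers of other cells, the cortical glutamatergic sum was lowest and the cholinergic sum highest in control pools 1 and 3, for pool 1 by small margins. The oligodendrocyte sum did not set them apart. The sum of 7 cortical glutamatergic genes was 16.4, 17.9 and 20.8 in the Goto-Kakizaki pools and 20.1, 19.2 and 22.4 in the streptozotocin pools, against 16.1, 18.6 and 15.9 in the control pools, so that control pools 1 and 3 were the lowest of the 9. The sum of 4 cholinergic genes was 0.584, 0.616 and 0.678 in the Goto-Kakizaki pools and 0.563, 0.509 and 0.654 in the streptozotocin pools, against 0.699, 0.648 and 0.927 in the control pools, so that control pools 1 and 3 were the highest. Single genes of these 2 lists did not all follow. Neurod6 was lower in Goto-Kakizaki pool 2 (2.29) than in control pools 1 and 3 (2.41 and 2.37). Slc5a7 was highest in control pool 2 (-1.91, against -2.13 and -1.96 in control pools 1 and 3). The sum of 7 oligodendrocyte genes was 95.2, 116 and 104 in the Goto-Kakizaki pools and 104, 110 and 112 in the streptozotocin pools, against 128, 143 and 160 in the control pools, so that it was high in all 3 control pools and did not set pools 1 and 3 apart from pool 2. The part of the tissue composition of these pools in the prefrontal results was not tested. On the slides that held 1 streptozotocin and 1 control prefrontal pool each, the difference was -0.39 for Adora2a and -0.29 for Rgs9 on slide 5, which held control pool 2, -2.67 and -2.87 on slide 6 (pool 3) and -2.14 and -2.12 on slide 7 (pool 1). Pde10a of streptozotocin-treated rats was 0.71, 0.95 and 0.58 in the prefrontal cortex, just below the controls (-0.49, limma, adjusted p = 0.086, and -0.23 against control pool 2 alone), and its within-slide difference was -0.02 beside control pool 2.

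Other genes of the same neurons were read from fixed lists. Of 7 cAMP and signalling partners with a probe (such as Adcy5, the main adenylyl cyclase of medium spiny neurons, and Gnal, its stimulatory G protein), 6 were called higher in the striatum than in the hippocampus in Goto-Kakizaki rats, 6 in streptozotocin-treated rats and 7 in controls. Of 8 striatal transcription factors it was 8, 7 and 7, and of 5 striatal receptors and channels it was 4 in each. Over all probes tested, 8.69%, 3.5% and 4.15% were called higher. The lists were chosen as striatal, so these counts describe how far their genes mark the pools. None of the 7 signalling partners was called against controls in any of the 6 comparisons of a model with its controls, with 7 of 42 tests at an unadjusted p under 0.05 in limma. The same held for the dopamine receptors Drd3, Drd4 and Drd5, with 1 of 18 tests. For neither list was the share of all probes at this unadjusted threshold determined.

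In the lists of striatal genes, calls against controls occurred in the prefrontal cortex only. Gpr6, an orphan receptor of indirect-pathway neurons, was -3.00, -2.00 and -2.33 in the Goto-Kakizaki pools and -2.62, -2.95 and -2.63 in the streptozotocin pools, against -0.19, -2.79 and 0.27 in the control pools (differences -1.54, limma, adjusted p = 0.045, and -1.83, adjusted p = 0.042). Oprk1, the receptor of dynorphin, was -4.13, -4.86 and -5.05 in the Goto-Kakizaki pools and -4.22, -4.38 and -4.18 in the streptozotocin pools, against -2.70, -3.95 and -2.57 in the control pools (-1.60, adjusted p = 0.0016, and -1.18, adjusted p = 0.043). Isl1, a transcription factor of direct-pathway neurons, was well above background in control pools 1 and 3 only (-4.04 and -2.91) and was called lower in Goto-Kakizaki rats (adjusted p = 0.017). For these called genes too, control pools 1 and 3 were the highest of the prefrontal pools. The summed signals of the whole striatal lists did not set these pools apart, but such a sum follows the brightest genes of a list. Gpr6 and Isl1, at no more than 0.27 and -2.91 (log2) in these pools, add little to it. The sums therefore cannot show how these genes behaved. Control pools 1 and 3 had 27.5 and 29.6 for the receptors and channels, against up to 30.8 in Goto-Kakizaki pools. For the transcription factors they had 25.4 and 27.1, against up to 30.9 in streptozotocin pools. For the signalling partners they had 88.7 and 103, against up to 123 in Goto-Kakizaki pools. Against control pool 2 alone, Gpr6 differed by 0.35 in Goto-Kakizaki and 0.06 in streptozotocin-treated rats, and Oprk1 by -0.73 and -0.31, with no test.

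Among markers of other cells, Mobp, a myelin gene of oligodendrocytes, fell in Goto-Kakizaki rats by 1.13 in the striatum (limma, adjusted p = 0.0018), 1.27 in the prefrontal cortex (0.00075) and 1.56 in the hippocampus (9.2e-05), and Mbp, another myelin gene, fell by 1.11 in the prefrontal cortex of streptozotocin-treated rats (0.020). Slc5a7, the choline transporter of cholinergic neurons, fell in Goto-Kakizaki rats by 1.41 in the prefrontal cortex (0.00053) and 1.26 in the hippocampus (0.0022), and rose by 1.03 in the striatum of streptozotocin-treated rats (0.022). Neurod6, of cortical glutamatergic neurons, fell by 1.12 in the striatum of Goto-Kakizaki rats (0.0043), where the summed signal of its list was 2.04 to 2.64, against 2.00 to 3.75 in controls. Against prefrontal control pool 2 alone the difference was -0.82 for Mobp and -1.50 for Slc5a7 in Goto-Kakizaki rats and -0.79 for Mbp in streptozotocin-treated rats. In Goto-Kakizaki rats Mobp, read from the brightest of its 3 probes, fell in the same 3 regions as Pde10a. The sum of the 7 oligodendrocyte genes was 330 to 391 in the Goto-Kakizaki striatum, against 390 to 416 in controls. It was 95.2 to 116, against 128 to 160, in the prefrontal cortex and 203 to 224, against 245 to 268, in the hippocampus. The ranges overlapped in the striatum only. The cortical glutamatergic sum set the striatum apart from the other regions: it was 2.00 to 3.75 in the striatum, against 15.9 to 22.4 in the prefrontal cortex and 20.8 to 27.6 in the hippocampus. The sum of the 3 dentate and pyramidal genes was 0.218 to 0.385 in the hippocampus, against 0.0707 to 0.111 in the prefrontal cortex and 0.107 to 0.141 in the striatum.

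Over the 9 group means, the profiles of most of the genes ran together, as a description that the choice of striatal genes largely sets. Pearson's r with the mean of the other members was 0.998 for Drd2, 0.997 for Drd1a and Adora2a, 0.995 for Rgs9, 0.978 for Ppp1r1b, 0.962 for Penk1 and 0.961 for Tac1. It was 0.856 for Pde10a and 0.707 for Pdyn, the genes set apart by the Goto-Kakizaki rats and by the hippocampus. Outside the 9 genes, the most similar profiles on the array belonged to Rasgrp2 (r = 0.9968), Tulp2 (0.9966), Igf2bp2 (0.9966), Ptpn7 (0.9959), Dlx5 (0.9958) and Ebf1 (0.9951). Each of them had its 3 highest group means in the striatum; for Rasgrp2 these were 2.05 in Goto-Kakizaki rats, 1.94 in streptozotocin-treated rats and 2.17 in controls.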

How the data were processed

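Total RNA of 27 pools was labelled with Cy3 and hybridised to Agilent rat whole-genome arrays. Per the file headers, the authors extracted spots with Feature Extraction 9.1, and the deposited processed signal is a background-subtracted intensity that was not scaled between arrays; their table of values held the same intensity. The log2 of this deposited intensity was taken after division by the 75th percentile of its array, without outlier spots and 1417 control spots. The deposited raw mean and background intensities served normexp only. A probe was tested where 2 or more of the 3 arrays of some group had it well above background. limma 3.58.1 in R 4.3.3 (package data.table, version 1.17.8) fitted 9 group means to 32077 probes (18 residual degrees of freedom), with Benjamini-Hochberg adjustment over all probes of a comparison; intervals are 95% intervals of the fit. Python 3.11.15, numpy 2.4.6, pandas 2.3.3 and matplotlib 3.10.9 read files and drew figures. The steps were tested on simulated data. The number of arrays limits precision.

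Probe names were updated with the GRCr8 RefSeq table: 10735 probes matched by accession, 5577 by symbol, 3730 by synonym and 20970 not. The members and the gene lists were chosen with earlier results of these data known. All members are named, with the brightest probe standing for a gene; from other lists, up to 4 genes per list that were called against controls; and the 6 probes most similar in profile to the members' mean. Equal replicate numbers marked shared deviations in 1 comparison, that of streptozotocin-treated with control prefrontal cortex (correlations of 0.494, 0.475 and 0.717), where they share slides, and the block on that number did not change the calls there. Alternatives were the 50th percentile, quantile normalization, the value table, normexp (offset 50), no or a stricter filter, outlier spots kept, no fold threshold, slide or replicate blocks, the spread of the region or the groups alone, the Welch test of the methods and leaving out each pool.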

Additional observations from a re-analysis of the deposited data

How the results depend on the processing

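Counts of called members kept within 1.5 times the reported count in 352 of 378 alternative analyses, and no comparison of the striatum with another region lost its direction. In the prefrontal cortex, the 4 genes called in Goto-Kakizaki rats became 1 with the spread of the region or the groups alone, 0 with the methods' Welch test after adjustment and 1 without adjustment. Without control pools 1 and 3, the difference of Drd1a reversed to 0.03. That alternative leaves control pool 2 as a lone control with the spread of the other groups. Leaving out single pools gave 1 (without control pool 3) to 6 (without control pool 2). The 2 genes called in streptozotocin-treated rats became 0 with normexp, with the spread of the region or the groups alone and with the Welch test before or after adjustment. When single pools were left out, the count was 0 without control pool 1, control pool 3 or streptozotocin pool 1. It was 1 without streptozotocin pool 3 and 6 without control pool 2. The share of all probes called in each alternative was not determined. After adjustment the Welch test called 0 genes in the Goto-Kakizaki striatum, where Pde10a had an adjusted p of 0.26, and 1 gene between control striatum and prefrontal cortex.

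Among differences of the Goto-Kakizaki effect, Tac1 made the count 1 between striatum and hippocampus at the 50th percentile, and 1 between hippocampus and prefrontal cortex with quantile normalization, with the stricter filter and with the replicate block (adjusted p = 0.041). The replicate block changed no other count. Leaving out single pools, the count lay between 0 and 1 for striatum minus hippocampus (1 without striatal control pool 1), 0 and 2 for striatum minus prefrontal cortex and 0 and 5 for hippocampus minus prefrontal cortex. For the streptozotocin effect it lay between 0 and 3 for striatum minus prefrontal cortex and 0 and 2 for hippocampus minus prefrontal cortex. The highest counts with the prefrontal cortex were those without its control pool 2. A fixed slide term could be fitted for 5 comparisons only. Except for the construction of these alternatives, the cause of each change was not tested. With 3 pools per group, the standard error of a difference from controls was 0.15 for Pde10a and 0.54 for Drd2, so the size of change that could be called differed between genes.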
